A study of Arabidopsis thaliana with 11 samples.

Results

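Transcript levels in triploid TME seedlings of Arabidopsis thaliana were compared with those in diploid seedlings of the same ecotype, C24. The comparison holds 5 of the 11 arrays of the study: the 3 arrays with the title code TME and the 2 with the title code DIP, chosen by those codes alone. The triploids have 3 chromosome sets and came from crossing a tetraploid with a diploid, and the diploids have 2. The labels do not spell out TME, and the other triploid group, TFE (n = 3), has the same source label. The tetraploids (n = 3, 4 chromosome sets) were obtained with colchicine. All plants share the same stock code and were whole seedlings at developmental stage 1.02, grown on agar with Murashige and Skoog salts under 16 h days at 21 °C and 8 h nights at 18 °C. Each array read 1 biotin-labelled sample on an Affymetrix ATH1 chip, on which every transcript is measured by a set of short probes called a probe set. No label ties a replicate to its own sowing or says how many plants were pooled, so the p-values describe variation among arrays that could be wholly technical. The arrays of each group have consecutive numbers in the titles, and no label says what these numbers stand for. If they follow an order of processing, its effect and an effect of ploidy cannot be told apart.

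Triploid plants carry an extra copy of every chromosome. Relative gene dosage between chromosomes is then kept, in contrast to aneuploids, while cells and nuclei of polyploids are usually larger. In seeds from crosses between ploidy levels, the balance of maternal and paternal genomes is disturbed, most visibly in the endosperm. Jasmonate, a lipid-derived hormone of wounding and touch, and the energy-stress response that follows darkness or loss of sugar each have well-known early transcripts in seedlings.

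Signals are the deposited MAS5 values, linear intensities that were scaled to a common mean on every array. They show each transcript relative to the rest of its array, not the amount of RNA per cell. In whole seedlings, moreover, a lower share of a cell type and less transcript per cell cannot be told apart. Of 22746 plant probe sets, 15075 passed a filter on dim signals and were tested, and 8161 of these are assigned to exactly 1 gene. Calls are made at an adjusted p under 0.05 in a limma fit over all 11 arrays.

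Of the 15075 probe sets, 19 were called between triploid TME and diploid seedlings (0.126%), and each of the 19 was higher in the triploids. The called differences had a median of 1.14 on the log2 scale, a 2.21-fold higher level, and ranged from 0.83 to 3.52, or from 1.77-fold to 11.5-fold. Of the 19 differences, 14 were at least 2-fold, as were 1.29% of all probe sets (0.896% higher, 0.398% lower). No probe set was called lower in limma, where 678 (4.5%) had an unadjusted p under 0.05, 267 of them lower (1.77%) and 411 higher (2.73%). The median difference of all probe sets was −0.0032 and the median absolute difference 0.14. Of the 19 called probe sets, 9 are assigned to 1 gene, 264214_s_at is assigned to several, and 9 have no gene in the annotation used here and are given by their probe set IDs. The groups' arrays did not overlap for any of the 19, as for 24% of all probe sets tested, 12.5% with TME above.

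**Figure D1:**
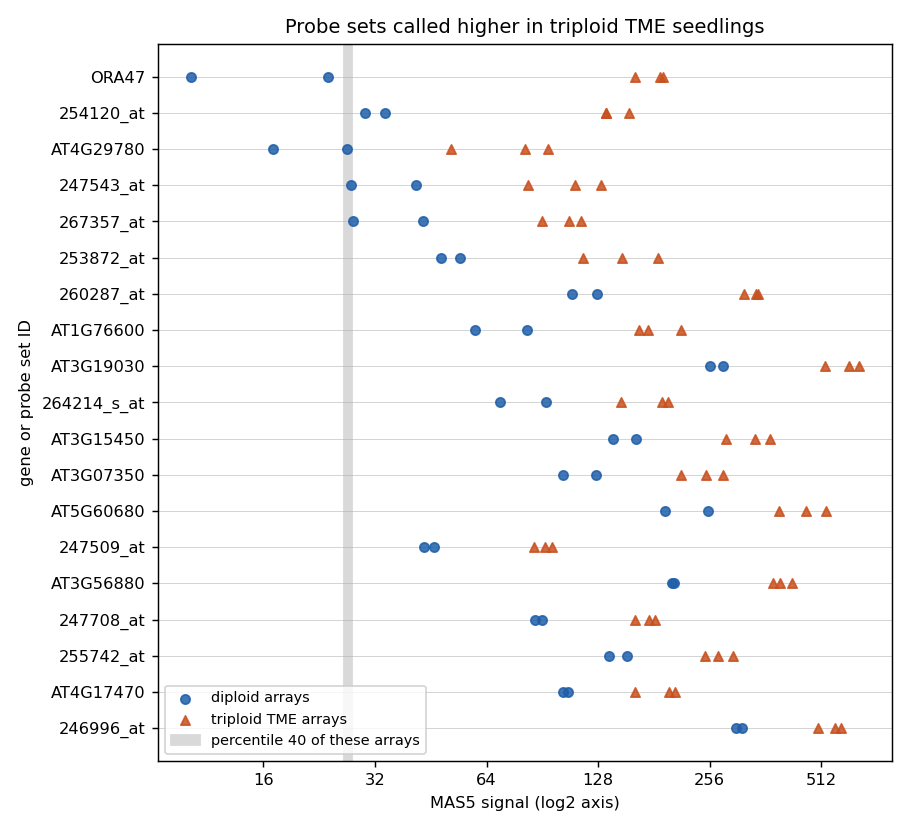
MAS5 signal (horizontal, log2 axis) of each called probe set (rows, sorted by the size of the difference) on the 2 diploid arrays (circles) and the 3 triploid TME arrays (triangles). The grey band marks the range of percentile 40 of these arrays, and every triangle in a row lies to the right of both circles. The diploid points of ORA47 lie left of the band.

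ORA47 (AT1G74930), an AP2/ERF transcription factor that activates genes of jasmonate synthesis, rose most. Its signals were 23.9 and 10.2 on the diploid arrays and 191, 188 and 161 on the TME arrays. The triploid arrays lay close together and far above both diploid arrays, which were below percentile 40 of their own array, so the size of the change is uncertain. The difference was 3.52 ± 0.36 on the log2 scale (SE; limma, adjusted p = 0.00064). The other gene of the jasmonate list that was measured, OPCL1, which encodes an acyl-CoA ligase of jasmonate synthesis, had a difference of 0.23 ± 0.19 with overlapping arrays.

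The smallest adjusted p belonged to 254120_at, which has no gene assigned here. It gave 34.1 and 30.2 in diploids and 155, 134 and 134 in TME triploids, a difference of 2.13 ± 0.18 (SE; limma, adjusted p = 0.00017). Each triploid signal was far above both diploid signals, and both diploid signals were above percentile 40.

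Among the brighter called genes, AT3G19030 had signals of 256 and 278 in diploids and 522, 647 and 606 in TME triploids. The difference was 1.14 ± 0.13 (SE; limma, adjusted p = 0.0016). The groups were well separated relative to the spread within each. AT5G60680, which encodes a protein of the S40-like family that includes regulators of leaf senescence, had 194 and 253 against 392, 464 and 526. It rose by 1.05 ± 0.15 (adjusted p = 0.02). AT3G56880, a gene for a VQ-motif protein, a family known as partners of WRKY factors, gave 205 and 202 against 380, 395 and 426. Its difference was 0.98 ± 0.15 (adjusted p = 0.029), with nearly equal diploid signals.

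AT3G15450, a gene whose transcript is known to accumulate in the dark and when sugar is short, gave 140 and 162 in diploids and 284, 372 and 338 in TME triploids. It rose by 1.13 ± 0.20 (SE; limma, adjusted p = 0.043). AT3G07350, of the DUF506 family, rose by 1.11 ± 0.18 (adjusted p = 0.029), from 103 and 126 to 214, 279 and 250. The lowest triploid signal of each was well above the higher diploid signal.

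The remaining named genes rose with adjusted p-values of 0.043. AT1G76600 gave 59.4 and 82.2 in diploids and 174, 215 and 165 in TME triploids, a difference of 1.39 ± 0.24. AT4G17470, of the alpha/beta hydrolase family, gave 103 and 106 against 198, 161 and 206, a difference of 0.84 ± 0.15. For both, the 2 diploid signals lay below all 3 triploid signals. AT4G29780 was dim, with 26.9 and 17.0 against 81.4, 93.5 and 51.4, a difference of 1.78 ± 0.31, and 1 of its diploid signals was above percentile 40, so its size is uncertain as well.

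The probe set 264214_s_at, whose probes match several genes, gave 69.5 and 92.4 against 191, 147 and 198, a difference of 1.14 ± 0.17 (SE; limma, adjusted p = 0.028). Its signal cannot be divided between those genes. The brightest of the unnamed probe sets, 246996_at, had the smallest called difference, 0.83 ± 0.13, with 312 and 302 against 501, 557 and 579. The probe set 260287_at gave 127 and 109 against 341, 316 and 346, a difference of 1.51 ± 0.27. For all 3 of these probe sets, both diploid arrays were below every TME array.

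**Figure D2:**
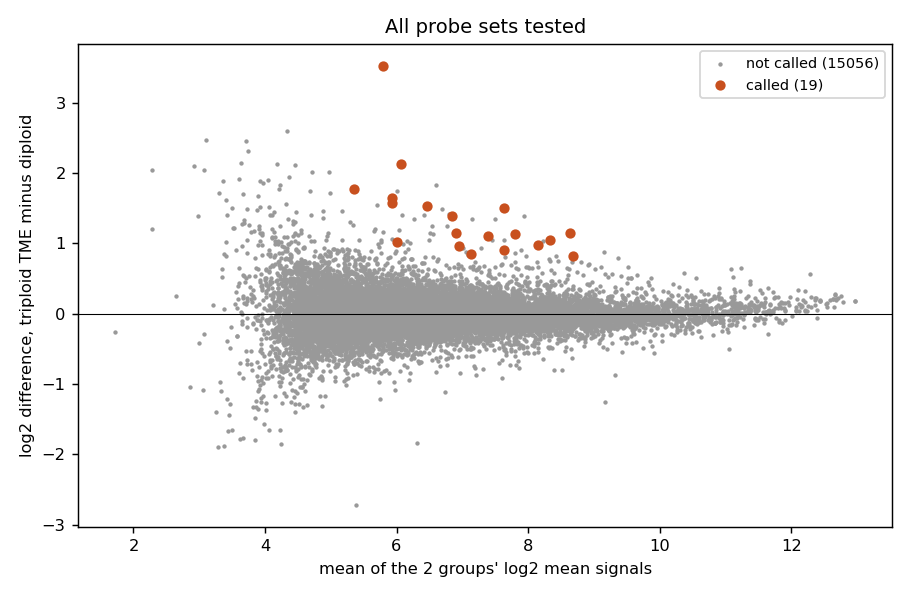
Log2 difference between triploid TME and diploid means (vertical) against the mean of the groups' log2 mean signals (horizontal) for the 15075 probe sets tested. The 19 called probe sets (large points) lie above 0 and no called point lies below, while the uncalled points spread most widely at dim levels.

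A further 18 probe sets had adjusted p-values between 0.05 and 0.1, and all 18 were higher in the TME triploids. The genes with the smallest p among those not called, not overlapping and brighter than the median probe set follow as values short of the threshold. AT3G10020 gave 96.6 and 90.5 in diploids and 170, 183 and 182 in triploids, with a difference of 0.93 ± 0.17 (SE; limma, adjusted p = 0.052). STZ, a zinc-finger transcriptional repressor of stress responses, gave 70.4 and 34.6 against 200, 224 and 120, a difference of 1.83 ± 0.36 (adjusted p = 0.077). Its arrays varied widely within both groups. CCL, a gene under circadian control, had a difference of 0.58 ± 0.11 (adjusted p = 0.077). AT1G25550, a GARP-type transcription factor of the nitrate response, had 0.65 ± 0.13 (adjusted p = 0.077), and AT5G03350, a lectin-like protein known to respond to salicylic acid, had 1.25 ± 0.26 (adjusted p = 0.1). AT5G25280, ZW9 and AT3G26510 had differences of 0.79, 0.64 and 0.74.

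On the lower side the smallest adjusted p was 0.12, shared by 260427_at, which has no gene assigned here and was singled out after its values were seen, with a difference of −0.64 ± 0.14 (SE; limma, adjusted p = 0.12), and EXGT-A3. EXGT-A3 is a xyloglucan endotransglucosylase that cuts and rejoins cell wall xyloglucan, and had signals of 498 and 517 in diploids and 330, 316 and 342 in TME triploids, a difference of −0.62 ± 0.13 (SE; limma, adjusted p = 0.12). The groups were clearly apart for this gene, but it did not pass the threshold. In other settings it was called lower with only the 5 arrays, with array weights and without TFE replicate 3 (limma, adjusted p = 0.035, 0.0083 and 0.018), and in no further setting. AT3G44450, which encodes an inhibitor of blue-light photoreceptor cryptochromes, gave 483 and 485 against 227, 297 and 313, a difference of −0.81 ± 0.19 (adjusted p = 0.21). AT2G29370, a tropinone reductase-like gene, gave 244 and 232 against 122, 144 and 178, a difference of −0.70 ± 0.16 (adjusted p = 0.15). In both, every triploid signal was under every diploid signal. With array weights both were called lower (limma, adjusted p = 0.045 for AT3G44450 and 0.040 for AT2G29370). With only the 5 arrays AT3G44450 was called lower as well (limma, adjusted p = 0.038). AT4G21870, of the small heat-shock protein family, had a difference of −0.97 ± 0.26 (adjusted p = 0.31). AT5G55620, AT3G24190, AT1G22520 and AT2G16660 had differences of −0.48, −0.59, −0.52 and −0.49, with adjusted p-values from 0.22 to 0.39.

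The most negative difference of any probe set tested belonged to AT4G36700, a cupin-family gene singled out here after its values were seen. It gave 137 and 77.4 in diploids and 21.5, 17.6 and 10.2 in triploids. The difference of −2.72 ± 0.78 had an adjusted p of 0.43 (limma), and the groups did not overlap. All 3 triploid signals were below percentile 40 of their array, so the size of the difference and its rank are uncertain.

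Gene lists were described by counts and medians, set beside the median of −0.0032, the 7455 higher and the 7620 lower among all 15075 probe sets. The list of sugar starvation and dark-induced genes had 7 measured members, of which 5 were higher and 2 lower, with a median difference of 0.50. AT3G15450 was the only member called (background 0.126%). AT2G20670, of the same DUF506 family as AT3G07350, gave 94.7 and 130 in diploids and 215, 314 and 336 in TME triploids, a difference of 1.35 ± 0.34 (SE; limma, adjusted p = 0.25). MCCA, a subunit of the carboxylase that breaks down leucine, had 1.05 ± 0.53, while MCCB, the other subunit of that enzyme, had −0.04 ± 0.22 and IVD, an earlier step of the same pathway, −0.06 ± 0.58.

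None of the 9 measured members of the touch, wound and early stress list was called, and its median difference was 0.25, with 6 higher and 3 lower. STZ, given above, had the largest difference. AR781 gave 34.2 and 33.3 in diploids and 76.5, 85.5 and 71.4 in triploids, a difference of 1.2 ± 0.23 (SE; limma, adjusted p = 0.065). PUB19, a U-box E3 ubiquitin ligase of stress responses, gave 44.5 and 38.2 against 107, 84.6 and 141, a difference of 1.4 ± 0.36 (adjusted p = 0.27). The triploid arrays were above the diploid arrays for these 3 genes, as for 12.5% of all probe sets. The related ligases PUB22, PUB23 and PUB24 had differences of −0.03, 0.00 and −0.21 with overlapping arrays. PUB26 had 0.78 ± 0.50 with the triploid arrays above the diploid arrays, and PUB49 had 0.28 ± 0.29 with overlapping arrays. Of the 8 measured U-box ligases, 6 were higher and 2 lower. For 3 of the 8 every triploid array was above both diploid arrays, beside 12.5% of all probe sets. EXO, a growth-related gene responsive to brassinosteroids, had −0.45 ± 0.19 (adjusted p = 0.97).

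Among transcription factors, all 6 measured WRKY genes were on the higher side, with a median of 0.24 and a range from 0.05 (WRKY6) to 0.50 (WRKY22), and none was called. The other measured AP2/ERF genes beside ORA47 were TINY2, at −0.81 ± 0.54, and tny, at −0.10 ± 0.30, both with overlapping arrays. Calmodulin-like genes, which bind calcium, had a median of 0.21 over 5 members, the U-box ligases 0.07 over 8, and neither list had a call. Without diploid replicate 2 the median of the calmodulin-like genes was −0.08.

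Cell wall genes lay on both sides of 0. Of 17 expansins and xyloglucan endotransglucosylases, 7 were higher and 10 lower, with a median of −0.04 and no call. That median was 0.19 without diploid replicate 1. Expansins, which loosen cell walls, included the highest values, with 0.41 ± 0.13 for EXPB3 (255 and 271 against 365, 320 and 359; limma, adjusted p = 0.64) and 0.68 ± 0.31 for the root hair gene EXPA18. Lower values included EXGT-A3, above, and the expansin-like EXLA1 at −0.69 ± 0.29. For each of these 4 genes the arrays of the groups did not overlap, as for 24% of all probe sets tested. In the whole list, 5 members did not overlap with TME above and 5 with TME below.

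Flavonoid and anthocyanin synthesis had 5 measured members, of which 4 were lower, with a median of −0.17 and no call. DFR, the reductase that commits the pathway to anthocyanins, gave 55.7 and 73.7 in diploids and 41.9, 44.7 and 42.5 in triploids, a difference of −0.58 ± 0.24 (SE; limma, adjusted p = 0.97). UF3GT, a glycosyltransferase that decorates anthocyanins, had −0.74 ± 0.33. The arrays did not overlap for either gene, as for 11.5% of all probe sets with TME below. Of 5 auxin response genes 4 were lower, with a median of −0.20, and the arrays of all 5 overlapped.

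Of 69 chloroplast-encoded genes, 60 were higher in TME triploids, with a median of 0.19, and none was called. An unadjusted p under 0.05 (limma) was seen for 4 of the 69, a share near the 4.5% of all probe sets. Transcript of psbM, a small subunit of photosystem II, gave 3943 and 4260 in diploids and 6958, 6074 and 5302 in triploids, a difference of 0.57 ± 0.18 (SE; limma, adjusted p = 0.65). The level of these genes varied between arrays of the same group. Relative to the diploid mean, its median deviation was −0.22 and 0.22 on the diploid arrays and 0.36, −0.07 and 0.23 on the TME arrays. The values of the groups overlapped (permutation test, 2-sided, p = 0.5, where 0.1 is the smallest possible). With the mean of 2 diploid arrays as the reference, the diploid values mirror each other by construction. The arrays are then not exchangeable, so this p-value cannot decide whether the groups differ. Without diploid replicate 1 the median difference became −0.03, and without diploid replicate 2 it became 0.38. It was −0.05 when the mean of the spiked-in controls entered as a covariate.

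Nuclear photosynthesis genes had a median of 0.04 over 11 members, 9 of them higher, with no call. After quantile normalization their median was −0.03. LHCB4.3, a light-harvesting protein of photosystem II, had −0.40 ± 0.16, and its relative LHCB4.1 0.22 ± 0.13. The 12 mitochondrial transcripts had a median of −0.03 and the 5 histone genes −0.03, again with no call. HTB1, a histone H2B gene, gave 330 and 380 against 303, 309 and 275, a difference of −0.26 ± 0.13.

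Few genes of the processes most often linked to ploidy could be measured by name. The cell-cycle and endoreduplication genes SIM, an inhibitor of cyclin-dependent kinases, PRL and AUR1 had differences of 0.20, −0.09 and −0.07. The DNA demethylase gene DME, which is linked to imprinted genes of the endosperm, had 0.01 ± 0.24, with all 5 signals between 100.1 and 110.3. The imprinted or Polycomb-linked genes MPC and AGL61 had 0.28 ± 0.34 and −0.15 ± 0.61. The clock gene GI had 0.20 ± 0.18. None was called (limma, adjusted p = 0.9994 for each), and the SE was larger than the difference for each of these genes except GI.

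**Figure D3:**
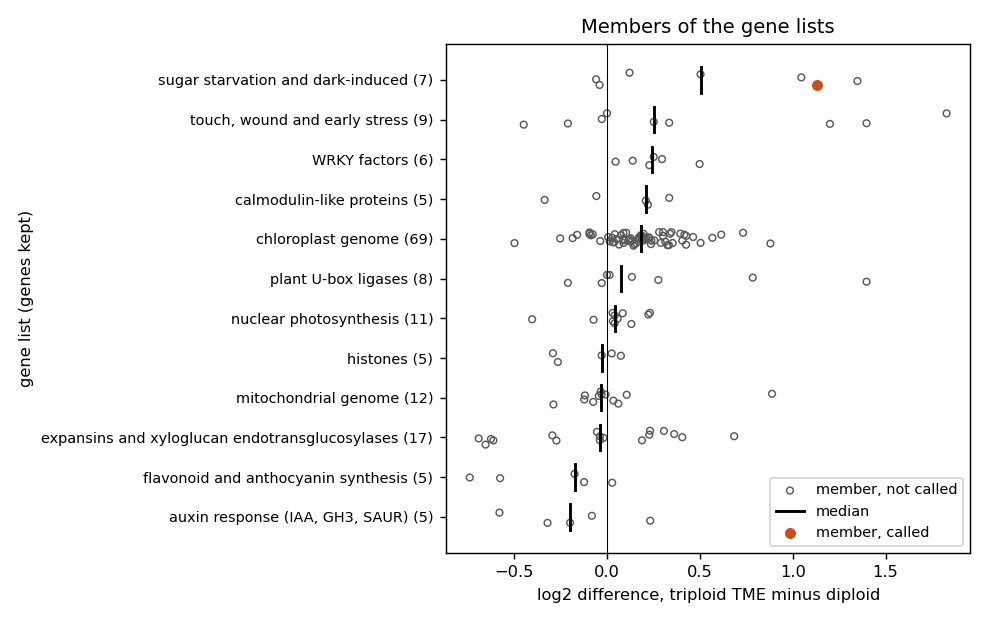
Log2 difference between triploid TME and diploid arrays (horizontal) for every measured member (circles) of the gene lists with at least 5 members, with the median as a bar and the number of genes in brackets. The filled point is AT3G15450, the only called member of these lists; 60 of 69 chloroplast genes lie to the right of 0.

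The median deviations of whole chromosomes were small on these 5 arrays. For chromosomes 1 to 5 the median deviation of an array from the diploid mean, relative to all nuclear genes, was at most 0.043. That value was on TME replicate 1 for chromosome 4. Permutation p-values ran from 0.4 to 0.9 (2-sided, smallest possible 0.1). The diploid mean is the reference here as well, so the diploid values mirror each other and these p-values cannot decide the question. The 9 called genes lay on chromosomes 1 (2 of 2112 tested), 3 (4 of 1635), 4 (2 of 1181) and 5 (1 of 1940), with 0 of 1195 on chromosome 2, beside 0.126% of all probe sets.

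The other polyploids were measured at the same loci. In the tetraploids all 19 probe sets were also called higher than in diploids, where 0.597% of all probe sets were, but this comparison uses the same diploid arrays. The TME difference amounted to a median of 78.9% of the tetraploid difference, from 57.3% for AT3G15450 to 122% for 247543_at. The 19 were chosen for a large TME difference and both differences share the diploid arrays, so this share can be too high. For ORA47 the tetraploid signals were 308, 216 and 281, all above the TME signals, and for AT3G15450 they were 531, 483 and 804. Set directly against each other without the diploids, tetraploids were higher than TME triploids for 18 of the 19, by a median of 0.31. None was called (limma, background 0% called, smallest adjusted p of the 19 0.49), with 8 higher in tetraploids at an unadjusted p under 0.05, as were 2.19% of all probe sets. With the replicate number as a block in a fit of those 6 arrays, chosen after seeing the data, 3 of the 19 were called, with a background of 0.279% (42 calls): AT5G60680, 253872_at and AT3G15450, higher in tetraploids by 0.56, 0.85 and 0.84 (limma, adjusted p = 0.047, 0.023 and 0.036). That fit has 2 residual degrees of freedom, and the same arrays with no block gave 1 call, which was none of the 19. In 11 of the 19 every TME array was under every tetraploid array, as for 8.03% of all probe sets.

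In the triploid TFE arrays, the mean of each of the 19 lay between the diploid and TME means. None was called between TFE and diploid (limma, background 0% called), and 14 were higher at an unadjusted p under 0.05, as were 4.5% of all probe sets. That comparison shares the diploid arrays on which the 19 were chosen, so the 14 are no independent evidence. The median TFE difference from diploid was 0.55, beside 1.14 for TME and 1.57 for tetraploid. Every TME array was above every TFE array for 16 of the 19, as for 6.82% of all probe sets; these 19 were chosen for high TME signals, so this count is no independent evidence. The same limit holds for the 2 of the 19 called between TME and TFE themselves, beside a background of 0.0265% (0.0199% higher in TME). The first was 254120_at, with 52.6, 75.5 and 67.2 on the TFE arrays against 155, 134 and 134 on the TME arrays, a difference of 1.13 ± 0.17 (SE; limma, adjusted p = 0.039). The second was 255742_at, with 144, 165 and 130 on the TFE arrays, 270, 297 and 249 on the TME arrays and 153 and 137 on the diploid arrays. It differed by 0.90 ± 0.14 between the triploids (adjusted p = 0.048), and by 0.01 between TFE and diploid.

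A different pattern was seen for 264214_s_at, with 169, 180 and 170 on the TFE arrays, and for 247509_at, with 91.9, 80.9 and 101 on the TFE and 85.9, 96.3 and 92.0 on the TME arrays. In these, the triploid groups overlapped and differed by 0.03 ± 0.15 and 0.01 ± 0.16 (limma, adjusted p = 0.94 and 0.99). ORA47 was intermediate and variable in TFE, with 39.8, 99.2 and 52.5, and its difference between the triploids of 1.6 ± 0.32 did not pass the threshold (adjusted p = 0.28). Triploid TFE replicate 3 stood apart from the other arrays, with rank correlations of 0.861 to 0.88, and entered the fit through the shared estimate of spread. Without it, none of the 19 was called between TME and TFE, and without TFE replicate 2, 4 were.

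**Figure D4:**
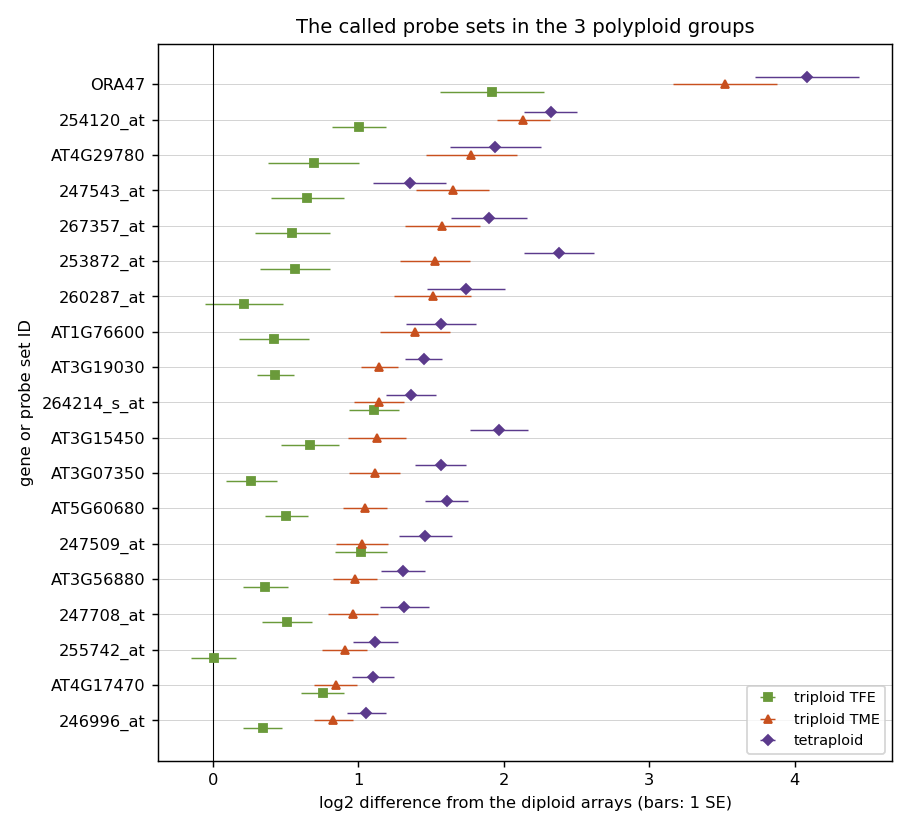
Log2 difference from the diploid arrays (horizontal, points with bars of 1 SE from limma) for the 19 called probe sets in triploid TFE (squares), triploid TME (triangles) and tetraploid (diamonds) seedlings. The 3 groups share the diploid arrays; TFE lies lowest in each row, and the tetraploid lies highest in each row except 247543_at.

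The tissue makeup and the arrays were compared between the groups as well. The root markers PYK10, a beta-glucosidase of roots, EXPA7 and EXPA18 summed to 2729 and 3275 in diploids and 3135 to 3486 in TME triploids. The 11 nuclear photosynthesis genes summed to 29297 and 38082 against 33249 to 37664, and both sums overlapped between the groups. PYK10 makes up nearly all of the root sum, with 2666 and 3211 against 3057, 3398 and 3393. EXPA18 did not overlap, with 32.3 and 37.0 against 47.2, 56.7 and 63.9, and EXPA7 did. Of the seed reserve and flower markers none is named in the annotation used here. The geometric mean of 18 probe sets for spiked-in bacterial controls was 157 and 322 on the diploid arrays and 425, 272 and 312 on the TME arrays (exact permutation test, 2-sided, p = 0.5, smallest possible 0.1). The ratios of 3′ to 5′ actin signal, a measure of RNA integrity, were 0.506 and 0.524 against 0.539, 0.466 and 0.407 (p = 0.5 by the same exact test). The chip's older pair of actin probe sets gave ratios of 2.44 and 2.23 against 2.88, 2.95 and 2.92, with every TME array above both diploid arrays (p = 0.1, the smallest this exact test allows). The part of the spiked-in control level in the calls was examined only in the covariate fit below. The part of the actin ratios was not tested. Rank correlations were 0.966 between the diploid arrays, 0.968 to 0.970 among the TME arrays and 0.956 to 0.973 between the groups. Single diploid and TME arrays differed at least 2-fold in 323 to 640 probe sets, beside 472 between the 2 diploid arrays and 365 to 445 among TME arrays.

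The number of calls rested on single arrays. Without diploid replicate 1 there were 2 calls, and without diploid replicate 2 there were 4. Leaving out TME replicate 1, 2 or 3 left 4, 5 and 4 calls. Without TFE replicate 1, 2 or 3 there were 11, 31 and 57, and without tetraploid replicate 1, 2 or 3 there were 11, 6 and 12. With the spiked-in control level as a covariate, 3 of the 19 were called, while the median difference of the 19 was 1.08 and the lowest 0.74, beside 1.14 and 0.83 as reported. Across the 24 other settings tried, 254120_at was called in 24, ORA47 in 23, AT3G19030 in 20 and AT5G60680 in 16, and the other 15 in 7 to 13. ORA47 missed the threshold without the intensity trend (limma, adjusted p = 0.061).

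**Figure D5:**
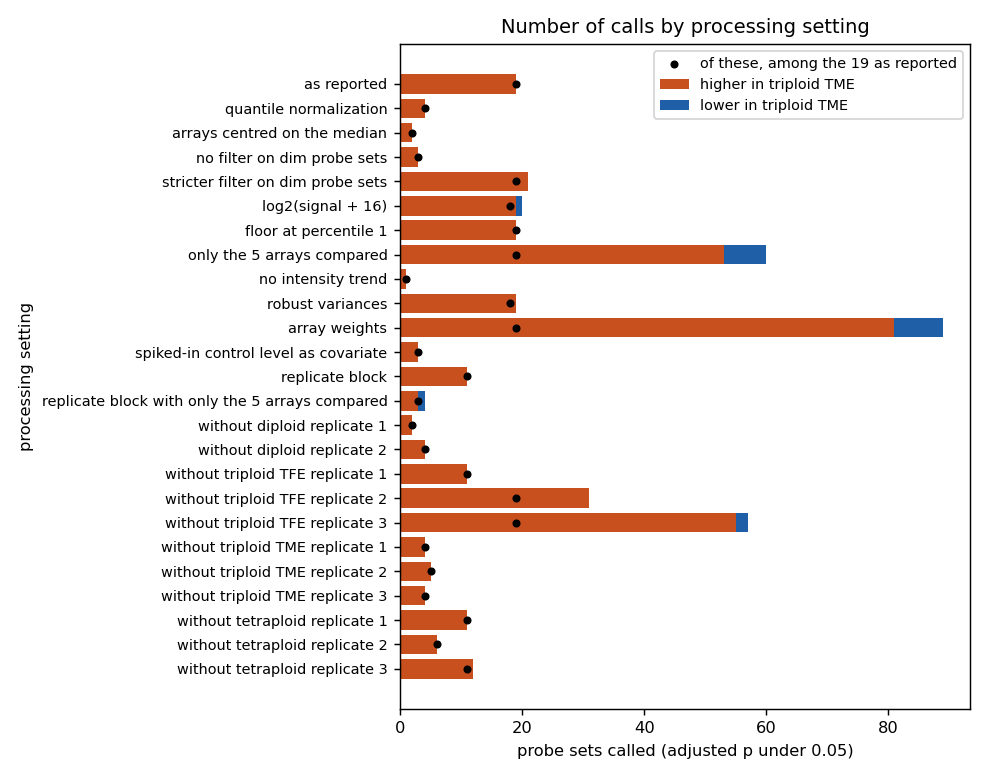
Number of probe sets called between triploid TME and diploid (horizontal) under each processing setting (rows), split into higher (orange) and lower (blue) in TME. Black dots give how many of them are among the 19 reported; the longest bar, with array weights, reaches 89, and the shortest, from the fit that has no intensity trend, 1.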

How the data were processed

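Total RNA of whole seedlings was hybridised to 11 one-colour ATH1 arrays. The deposited values are linear intensities, 1 per probe set, made by the authors with the MAS5 software (version not given), per the submitters' processing notes. No detection calls or scanner files were used here, and the number of arrays limits the precision. After removal of 64 control probe sets, signals under 2.279, percentile 10 of the plant values of all arrays together, were raised to it before log2 was taken. A probe set was kept (66.3% were) if at least 2 arrays had it above their own percentile 40. Group means of the 4 groups over all 11 arrays were fitted with limma 3.58.1 in R 4.3.3 (7 residual degrees of freedom, intensity trend), and contrasts were tested 2-sided with Benjamini-Hochberg adjustment over the 15075 probe sets kept. Every adjusted p in the text is from limma. Single values per array were compared with exact permutation tests. For the median deviations by chromosome and of the chloroplast genes, the reference was the diploid mean and was not recomputed in the permutations. Those p-values are therefore not exact.

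Probe sets were named from GEO's platform annotation, with loci and symbols updated from the gene table of assembly TAIR10.1. Of the plant probe sets 13513 had 1 gene, of which 13436 matched the table, 503 had several and 8730 had none. The genes named are every called probe set, the 8 higher and 8 lower with the smallest p among uncalled, non-overlapping genes brighter than the median (signal 85.3), and up to 3 members of each list. Other members of a list are named for contrast and were chosen after their values were seen. The 21 gene lists and the comparison were chosen with earlier results of these data known, so lists have counts and medians and no test. No label says that replicate numbers mark a shared sowing. Deviations from the group means correlated at 0.10, 0.12 and 0.14 for TME and tetraploid arrays of the same number. For this reason a fit of these groups alone with a replicate block was added after seeing the data. The contrasts as reported have no block. Promoter sequences were not used here. On simulated data for this comparison, over 15075 probe sets, 56% of changes of 1 and 87% of changes of 2 on the log2 scale were called in the right direction, with 9 false calls. The simulated noise was independent between arrays and held no array-wide differences, unlike the measured arrays. The alternatives were other normalizations, filters, floors, variance models and array sets, a replicate block, and leaving out each array.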

Additional observations from a re-analysis of the deposited data

Results flagged for a closer look

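The difference from diploids itself differed between the triploid groups for 2 of the called probe sets, neither of which has a gene assigned here. The called probe sets were chosen for high TME signals, so finding 2 such differences among them is no independent evidence. For 254120_at the TME difference exceeded the TFE difference by 1.13 ± 0.17 on the log2 scale (SE; limma contrast of the triploid groups, adjusted p = 0.039), and all 3 TME arrays were above all 3 TFE arrays. For 255742_at it did so by 0.90 ± 0.14 (limma, adjusted p = 0.048), again with all 3 TME arrays above all 3 TFE arrays. How many of the called probe sets pass this contrast under other settings is given in the next paragraph.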

How the results depend on the processing

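In place of 19 calls, all higher, there were 4 after quantile normalization, 2 with arrays centred on the median, 3 with no filter on dim probe sets, 1 without the intensity trend and 3 with the spiked-in controls as a covariate, each all higher. Fitting only the 5 arrays compared gave 60 (53 higher, 7 lower) and array weights gave 89 (81 higher, 8 lower), and log2(signal + 16) gave 1 lower call. The stricter filter, the lower floor and robust variances gave 21, 19 and 19. Leaving out 1 array gave 2 to 57 calls, of which 2 to 55 were higher and 0 to 2 lower. List members called, 2 as reported, were 1 under quantile normalization, median centring, no filter, the spike covariate and both replicate blocks, 0 without the trend, 7 with only the 5 arrays or array weights, and 1 to 6 with an array left out. Called probe sets that also passed between TME and TFE, 2 as reported, were 0 under quantile normalization, no filter, no trend, the spike covariate and the replicate block, 1 with median centring, 5 with array weights and 0 to 4 with an array left out. The replicate number as a block left 11 calls, all higher, and 4 (3 higher, 1 lower) with only the 5 arrays. Deviations of same-numbered diploid and TME arrays correlated at 0.004 and −0.19. With 2 diploid arrays the deviations mirror each other, so these values cannot show whether the groups share more than a number. A fit of the TME and tetraploid arrays alone with the block was added because their deviations correlated in these same data, and no label states a pairing. The block in a fit of those 6 arrays raised the calls among the 19 between tetraploid and TME from 0 to 3. As that block was chosen from these data, the 3 calls are no independent evidence. The other settings, the block over all 11 arrays and each array left out gave 0. The settings with no filter or with fewer arrays differ by construction in the number of tests or arrays, and for the others the cause was not tested. Of the lists with at least 5 members, the medians of the sugar starvation, touch, WRKY, U-box, flavonoid and histone lists kept their sign in every setting, and those of the auxin, calmodulin-like, cell wall, chloroplast, mitochondrial and nuclear photosynthesis lists changed sign in at least 1. In the simulated data, 56% of changes of 1 on the log2 scale were called, so changes of about 2-fold can be missed. Those data held no array-wide differences, and the number of diploid arrays was not varied in them.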
